A study of Mus musculus with 4 samples.

Results

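The carnitine shuttle genes were compared between mouse brown adipocytes that expressed Blnc1, a long noncoding RNA also called brown fat lncRNA 1, and brown adipocytes that carried the vector. All cells were wild type, came from preadipocytes expressing one or the other construct, and had been differentiated for 6 days. There were 2 arrays per group, each from 250 ng of total RNA, on Affymetrix arrays of the mouse PM Strip type, whose probes lie toward the 3' end of transcripts. The 8 genes were chosen as the enzymes and transporters of the shuttle, with earlier results of these data known. Every probe set annotated with exactly 1 of their symbols was taken. This gave 10 probe sets of 23599, and all 8 genes had at least 1. No filter on low values was applied, so none of the 10 was dropped. Values are log2 expression. A fold change is Blnc1 over vector, its test is limma's over all 23599 probe sets with Benjamini-Hochberg adjustment, and a gene is said to have risen or fallen only where the adjusted p was below 0.05.

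Long-chain fatty acids enter mitochondria as carnitine esters. Carnitine is taken up at the plasma membrane by Slc22a5 (OCTN2). A carnitine palmitoyltransferase 1 at the outer mitochondrial membrane transfers the acyl group from coenzyme A to carnitine, Slc25a20 (the carnitine-acylcarnitine translocase) exchanges the ester across the inner membrane, and Cpt2 returns the acyl group to coenzyme A in the matrix. The first step is the one inhibited by malonyl-CoA. It has a liver-type enzyme (Cpt1a), a muscle-type enzyme (Cpt1b), which is also the form typical of brown fat, and a brain-type protein of the endoplasmic reticulum (Cpt1c). Crat and Crot handle short-chain and medium-chain acyl groups in mitochondria and peroxisomes. Brown fat uses this route to burn fatty acids for heat.

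The arrays were first checked against their labels. The brighter of the 2 probe sets for the Blnc1 transcript read 24.8-fold higher in the Blnc1 arrays, and the other did not pass (log2 fold change -0.31). Array medians lay between 5.98 and 6.04. Replicates of a probe set differed by a median of 0.091 in vector and 0.10 in Blnc1 arrays. Several other measures also differed between the groups. All 18 hybridisation control probe sets had a lower mean in Blnc1 arrays (median difference -0.27). Xist rose (log2 fold change 0.55, limma adjusted p = 0.0479). The Y-linked Eif2s3y, Uty and Kdm5d fell, at -1.18, -1.02 and -0.87 (limma adjusted p = 0.0120, 0.0341 and 0.0289). The 3' minus 5' log2 difference of the Gapdh control, a sign of RNA quality, had a mean of 0.41 (vector) and 0.28 (Blnc1), and that of Actb a mean of 1.51 (vector) and 1.34 (Blnc1). Their part in the results on the shuttle was not tested. Of the 8 measured brown adipocyte markers 5 rose (Ucp1, Cidea, Cox7a1, Cox8b and Dio2), where 0.860% of all genes rose. None fell, and the median was 1.09. In the vector arrays Ucp1 read 5.01 in both, below the array medians, and in the Blnc1 arrays 7.97 and 8.05. Dio2 lay below the medians on all arrays (3.91 and 3.73 in vector, 4.77 and 4.96 in Blnc1). Of 9 measured markers of adipocytes in general none rose and 1 fell, where 0.366% of all genes fell. It was the secreted protein Retn (log2 fold change -0.67 ± 0.081 SE, limma adjusted p = 0.0380). At an unadjusted p below 0.05 none were higher and 3 lower, where 20.7% of all genes differed, and the median was 0.0016. The labels call the replicates biological without saying whether they came from separate cultures, so p-values measure only the spread between these arrays.

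Cpt1b was the shuttle gene that rose. Its probe set read 7.45 and 7.47 in the vector arrays and 8.76 and 8.90 in the Blnc1 arrays. Both Blnc1 arrays lay above both vector arrays, with 1.29 log2 units between the nearest pair. Cpt1b rose 2.58-fold (95% confidence interval 2.23 to 2.98), a log2 fold change of 1.37 ± 0.085 (SE, n = 2 per group, limma adjusted p = 0.0120). Of all probe sets, 0.0551% had a larger log2 fold change. In bulk samples such as these, more RNA per cell and more cells that express the gene cannot be told apart. The adjusted p was 0.0862 without Blnc1 replicate 1 and 0.103 without Blnc1 replicate 2, where the log2 fold changes were 1.44 and 1.30. In such fits the lone array is assumed to vary like the other group, and fewer degrees of freedom remain.

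Cpt1a, the liver-type enzyme, was lower in the Blnc1 cells but narrowly missed the threshold. It read 5.39 and 5.38 in the vector arrays against 4.80 and 4.89 in the Blnc1 arrays, so the groups did not overlap. The log2 fold change was -0.54 ± 0.079 (SE, n = 2 per group, limma adjusted p = 0.0526), or 1.45-fold higher in vector cells. Over 12 alternative settings the log2 fold change of Cpt1a stayed between -0.58 and -0.49, and its limma adjusted p ranged from 0.0158 to 0.165 and was below 0.05 in 5 of them. The probe set was dim, below the median of its arrays, where RMA values compress fold changes.

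Cpt1c, the brain-type member, was also lower, at 5.67 and 5.72 in the vector arrays and 5.33 and 5.37 in the Blnc1 arrays. Its groups did not overlap. The log2 fold change was -0.35 ± 0.077 (SE, n = 2 per group, limma adjusted p = 0.0993), which did not pass. It too was dim. The 3 isoforms of the first step therefore did not share a direction, and only the muscle-type isoform passed the test.

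**Figure D1:**
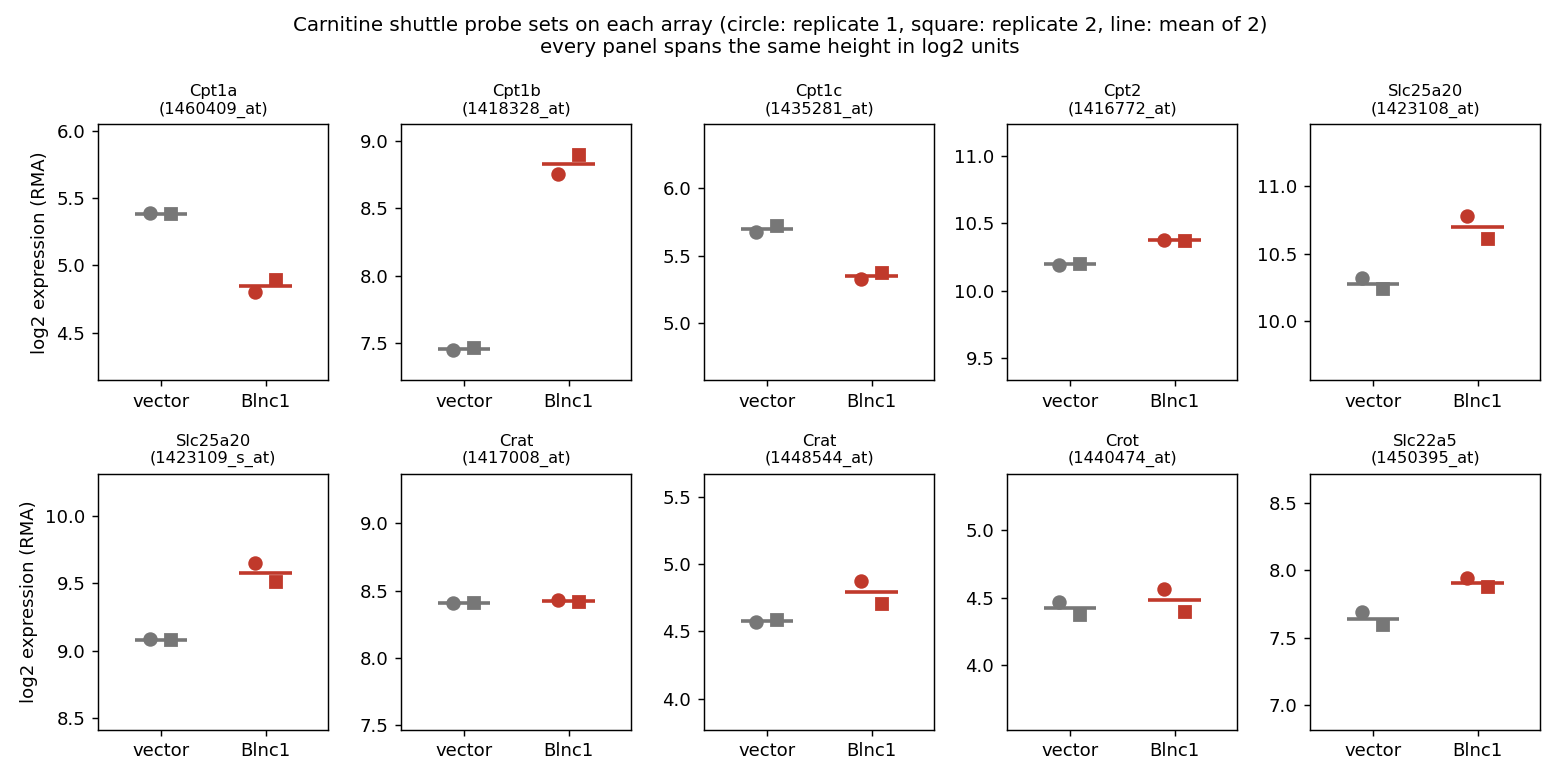
Log2 expression of the 10 carnitine shuttle probe sets on each of the 4 arrays, vector in grey and Blnc1 in red, with a line at the mean of each group; every panel spans the same height. Cpt1b moved from 7.45 and 7.47 to 8.76 and 8.90, Cpt1a and Cpt1c lay lower in Blnc1 cells, and Crot was the probe set whose groups overlapped.

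The shift between the muscle-type and liver-type isoforms was also measured within each array, as the log2 value of Cpt1b minus that of Cpt1a. Relative to the vector mean this difference was -0.014 and 0.014 in the vector arrays and 1.88 and 1.93 in the Blnc1 arrays. The shift was 1.90 log2 units, a 3.74-fold change of the ratio, against SDs between replicates of 0.020 (vector) and 0.033 (Blnc1). Cpt1b supplied 71.8% of it. An exact two-sided permutation test over the arrays gave p = 0.333, the smallest value that 2 against 2 arrays allow. The difference shows unequal change only: the levels of different probe sets cannot be set against each other, so which isoform was the more abundant was not measured, and since the lower value of Cpt1a did not pass, the data do not establish a switch between isoforms.

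The RefSeq promoter table (build GRCm38.p6) held 6 of the 8 genes, and Cpt1b and Crat were not matched. The 150 bases before the transcript start are printed for the pair of isoform genes that were lower and for the membrane carriers that were higher, with motif matches on either strand in capitals. The motifs searched were the nuclear receptor half-site AGGTCA, the GC box GGGCGG, the CCAAT box and the TATA box, spelled TATAAA. Cpt1a lies at chr19:3323151-3323300 (plus strand), Cpt1c at chr7:44974852-44975001 (minus strand), Slc25a20 at chr9:108661986-108662135 (plus strand) and Slc22a5 at chr11:53891704-53891853 (minus strand).
Cpt1a: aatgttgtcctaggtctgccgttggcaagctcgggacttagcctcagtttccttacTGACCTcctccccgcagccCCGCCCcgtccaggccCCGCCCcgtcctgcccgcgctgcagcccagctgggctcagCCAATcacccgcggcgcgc
Cpt1c: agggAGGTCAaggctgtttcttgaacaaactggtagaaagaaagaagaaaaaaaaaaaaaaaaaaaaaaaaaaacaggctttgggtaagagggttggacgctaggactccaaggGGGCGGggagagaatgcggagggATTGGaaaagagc
Slc25a20: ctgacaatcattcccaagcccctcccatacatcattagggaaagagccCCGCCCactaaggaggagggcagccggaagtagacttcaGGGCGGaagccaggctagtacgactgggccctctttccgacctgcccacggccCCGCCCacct
Slc22a5: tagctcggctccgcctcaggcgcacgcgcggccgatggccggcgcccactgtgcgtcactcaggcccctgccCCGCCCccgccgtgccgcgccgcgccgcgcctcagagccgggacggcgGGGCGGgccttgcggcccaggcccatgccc
Over the full window of 300 bases (250 before the start and 50 after), the half-site AGGTCA was found in the promoters of Cpt1a and Cpt1c and in none of the other 4 matched genes, against 16.3% of all 32851 promoters in the table. Its first base lies at -94 in Cpt1a (minus strand) and at -146 in Cpt1c (plus strand). An exact direct repeat AGGTCANAGGTCA, the consensus form bound by PPAR with RXR, was in none of the 6 and in 0.0396% of all promoters. At so low a share its absence from 6 promoters says nothing about them, and inexact repeats were not searched. The GC content of the window was 47.3% in Cpt1c and between 57.3% and 72.7% in the other matched genes. The median over all promoters was 52.7%. All 6 held a GC box, against 35.7% of all promoters, 3 held CCAAT (37.4%) and none held TATAAA (13.6%). These matches describe letters in the window and were not tested for any link to the values.

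The inner-membrane translocase Slc25a20 was measured by 2 probe sets that carry the same accession, so they are not independent. The brighter read 10.32 and 10.24 in the vector arrays and 10.78 and 10.61 in the Blnc1 arrays. The other read 9.09 and 9.08 against 9.65 and 9.51. In both, the Blnc1 arrays lay above the vector arrays, and Blnc1 replicate 1 was the higher of its pair. Their log2 fold changes were 0.42 ± 0.093 and 0.50 ± 0.085 (SE, n = 2 per group), or 1.34-fold and 1.41-fold, and neither passed (limma adjusted p = 0.101 and 0.0658).

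Cpt2, the matrix enzyme that follows the translocase, read 10.19 and 10.20 in the vector arrays and 10.38 and 10.37 in the Blnc1 arrays. Replicates lay within 0.011 of each other and the groups did not overlap. The log2 fold change was 0.18 ± 0.075 (SE, n = 2 per group), 1.13-fold, with a 95% confidence interval of 0.997 to 1.29-fold (limma adjusted p = 0.273).

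Slc22a5, the carnitine importer of the plasma membrane, read 7.69 and 7.59 in vector arrays and 7.94 and 7.87 in Blnc1 arrays. The groups did not overlap, and the nearest arrays lay 0.19 apart. Its log2 fold change of 0.27 ± 0.082 (SE, n = 2 per group), 1.20-fold, did not pass (limma adjusted p = 0.172).

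The acetyltransferase Crat, which buffers acetyl-CoA as acetylcarnitine, had 2 probe sets with different values. The brighter read 8.41 in both vector arrays and 8.43 and 8.42 in the Blnc1 arrays, a log2 fold change of 0.015 ± 0.075 (SE, n = 2 per group, limma adjusted p = 0.937) that turned negative under repeated quantile normalization and under median centring. Its 95% confidence interval ran from 0.890 to 1.15-fold. The other, dim probe set read 4.57 and 4.59 against 4.87 and 4.71, at 0.21 ± 0.089 (SE, n = 2 per group, limma adjusted p = 0.278).

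Crot, the peroxisomal carnitine octanoyltransferase, read 4.47 and 4.37 in the vector arrays and 4.57 and 4.39 in the Blnc1 arrays. It was the member whose groups overlapped. The log2 fold change was 0.060 ± 0.094 (SE, n = 2 per group, limma adjusted p = 0.785), with a 95% confidence interval of 0.889 to 1.22-fold, and without Blnc1 replicate 1 it was -0.026. The probe set was dim.

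Over all 10 probe sets, 1 rose and none fell, against 0.928% of all probe sets past the same test in either direction, 0.623% higher and 0.305% lower. At an unadjusted p below 0.05 there were 6 of 10, against 18.9% of all probe sets. The groups did not overlap in 9 of 10, 7 higher and 2 lower in Blnc1 cells. Of all probe sets, 50.4% did not overlap (26.4% higher, 24.0% lower). With 1 probe set per gene, 6 of 8 genes were above 0 with a median log2 fold change of 0.12, beside 51.6% of 10926 genes and a median of 0.0073. The groups did not overlap for 7 of the 8 genes, against 53.2% of all genes, and 1 of 8 passed, against 1.23%. Since the genes were chosen with earlier results of these data known, these shares only describe them. The half-widths of the 95% confidence intervals lay between 0.18 and 0.23 log2 units. With a variance prior that follows intensity, 5 of the 10 passed (Cpt1b, Cpt1a, Cpt2 and both Slc25a20 probe sets), where 9.21% of all probe sets did. With the mean of each gene's probe sets, Cpt1b, Cpt1a and Slc25a20 passed, where 4.27% of all genes did.

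**Figure D2:**
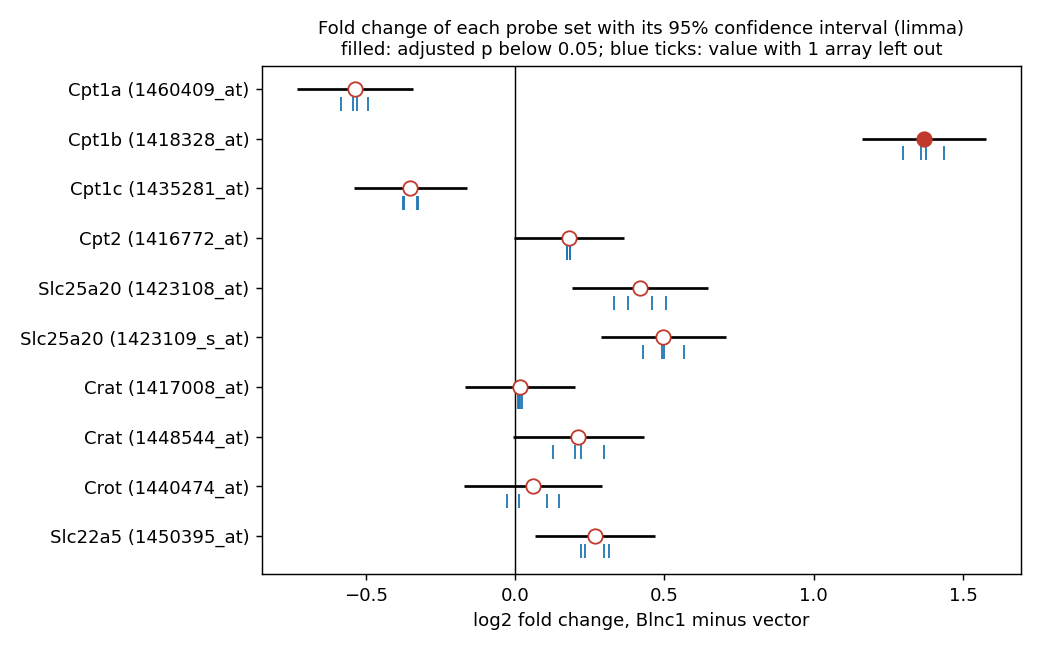
Log2 fold change (Blnc1 minus vector) of the 10 probe sets with 95% confidence intervals from limma; filled symbols passed an adjusted p of 0.05 and blue ticks give the value with each array left out. Cpt1b at 1.37 stands apart from the others, which lie between -0.54 and 0.50, and the intervals of Cpt2, both Crat probe sets and Crot include 0.

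The next question was whether the rise of Cpt1b extended to the genes beside it. In the RefSeq gene table Chkb, a choline kinase, is the protein-coding gene next to Cpt1b on one side and Syce3 on the other, and 1 further locus, the noncoding Gm44502, overlaps both. A probe set cannot tell a transcript that spans both genes from Cpt1b itself. Chkb read 8.48 and 8.39 in the vector arrays and 8.94 and 8.88 in the Blnc1 arrays, without overlap. Its log2 fold change was 0.47 ± 0.081 (SE, n = 2 per group, limma adjusted p = 0.0667), which did not pass. On the side of Syce3 the nearest measured gene was Odf3b, at -0.25, with a further probe set at 0.020. Both Odf3b probe sets were dim. Of 11 listed neighbours Syce3, Klhdc7b, Tymp and Sco2 had no probe set named by that symbol alone. Of the 7 measured neighbours none rose or fell, where 0.860% of all genes rose and 0.366% fell (limma). At an unadjusted p below 0.05, 2 were higher (Chkb and Shank3, the latter at 0.27 on a dim probe set), where 20.7% of all genes differed in either direction. Ncaph2, a further neighbour, stood at -0.057 by its brightest probe set. Its other probe sets gave 0.044, -0.37 (limma unadjusted p = 0.0400) and 0.084. The median of the 7 was 0.031.

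**Figure D3:**
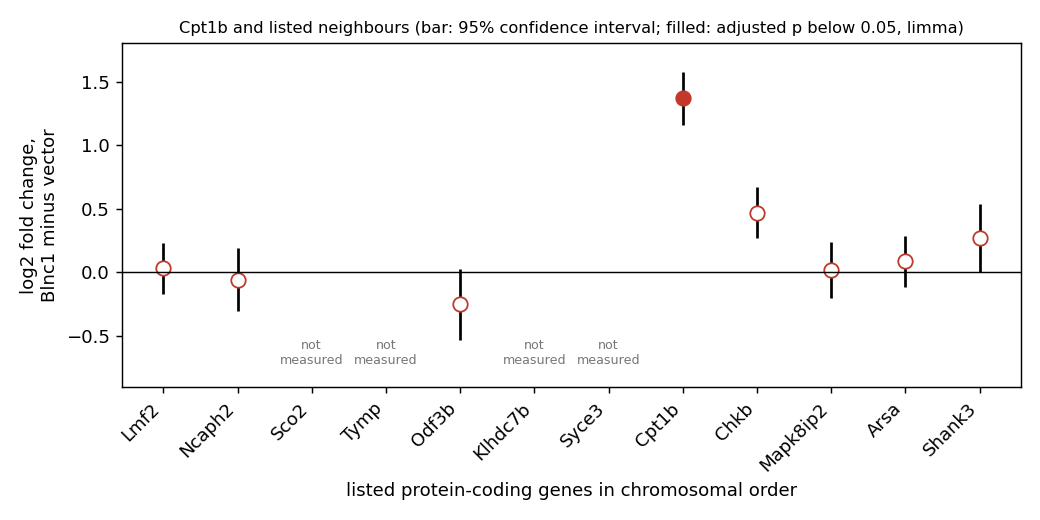
Log2 fold change (Blnc1 minus vector) of Cpt1b and the listed protein-coding genes on either side in chromosomal order, with 95% confidence intervals. Cpt1b at 1.37 is the filled symbol, Chkb follows at 0.47, and the others lie between -0.25 and 0.27.

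Among 10926 genes, those with the profile most like that of Cpt1b were found by Euclidean distance over the 4 arrays after subtracting each vector mean. The nearest was Cox7a1, a cytochrome c oxidase subunit isoform of muscle and brown fat, at a distance of 0.16. Calhm6 (0.18), the haem oxygenase Hmox1 (0.19), the inter-alpha-trypsin chain Itih5 (0.27) and the oxidase subunit Cox8b (0.36) followed. These 5 had log2 fold changes between 1.13 and 1.54. Nearest to Cpt1a were the spindle gene Tpx2 (0.052), the mitotic Dlgap5 (0.072), the nuclear receptor Rora (0.075) and the collagens Col5a3 (0.076) and Col6a3 (0.090), with log2 fold changes between -0.56 and -0.49. With 4 arrays in 2 groups, a small distance means little more than a similar fold change.

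The genes around the shuttle were read from 9 lists with 113 measured genes of 147. Besides enzymes and carriers, these hold 20 measured regulators, 14 PPAR-alpha target genes and the 7 measured neighbours of Cpt1b. In the 9 lists together 6 genes rose and 1 fell, where 0.860% of all genes rose and 0.366% fell. Of the 113, 79 were above 0, against 51.6% of all genes, and the overall median log2 fold change was 0.11. Both Blnc1 arrays lay above both vector arrays for 63 and below them for 14, against 28.3% and 24.9% of all genes. All 7 calls were lost with any 1 array left out and with the replicate number as a block, where no listed gene passed (limma; 28 to 35 and 47 of them at an unadjusted p below 0.05). With 1 array left out, the log2 fold changes of the 6 that rose lay between 0.52 and 0.98 and that of Abcd2, which fell, between -0.94 and -0.66.

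Fatty acid activation, which makes acyl-CoA, held 11 measured genes, with Acsl1 among those not measured. None passed (limma), and the median was 0.13. At an unadjusted p below 0.05, 4 were higher and 1 lower, where 20.7% of all genes differed in either direction. The smallest p-values were those of the mitochondrial acetyl-CoA synthetase Acss1, on a dim probe set (0.45 ± 0.077 SE, limma adjusted p = 0.0658), and of the long-chain synthetases Acsl5 (0.32 ± 0.084) and Acsl4 (0.39 ± 0.11).

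Control of the first step by malonyl-CoA was read from 12 genes, of which none passed (limma, median 0.071). At an unadjusted p below 0.05, 2 were higher and none lower, where 20.7% of all genes differed in either direction. Acacb, the acetyl-CoA carboxylase whose malonyl-CoA acts at the outer mitochondrial membrane, read 9.04 in both vector arrays and 9.50 and 9.41 in the Blnc1 arrays. Its log2 fold change of 0.41 ± 0.079 (SE, n = 2 per group) did not pass (limma adjusted p = 0.0807). The cytosolic carboxylase Acaca stood at -0.066 ± 0.084 (SE), a sign that turned with the mean of its probe sets. Mlycd, which degrades malonyl-CoA, stood at 0.18 ± 0.087, and the catalytic AMPK subunits Prkaa1 and Prkaa2 at -0.070 ± 0.083 and 0.13 ± 0.082. The regulatory subunit Prkab2 stood at 0.39 ± 0.14, and Mid1ip1, which promotes carboxylase activity, at -0.24 ± 0.11. Further probe sets of Prkab2 gave 0.20 and 0.044.

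Of 6 genes for carnitine synthesis and other carnitine carriers none passed (limma, median 0.064). At an unadjusted p below 0.05, where 20.7% of all genes differed in either direction, 1 was higher. That was Tmlhe, the first enzyme of carnitine synthesis, at 0.26 ± 0.086 (SE). Further Tmlhe probe sets gave 0.23, 0.13 and, on a dim probe set, -0.15. Aldh9a1, a later enzyme of the same route, stood at 0.17 ± 0.081. The mitochondrial carrier Slc25a29 stood at 0.093 ± 0.089, which turned negative with the mean of its probe sets.

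Downstream, mitochondrial beta-oxidation had the highest median among the lists, 0.23. Of 17 measured genes 15 were positive, against 51.6% of all genes, and 13 had both Blnc1 arrays above both vector arrays, against 28.3%. None passed (limma), and 10 were higher at an unadjusted p below 0.05, where 20.7% of all genes differed in either direction. The thiolase Acaa2 read 11.24 and 11.20 against 11.64 and 11.61 (0.40 ± 0.076 SE, limma adjusted p = 0.0782), and its further probe sets gave 0.51 and 0.76 without passing. The hydratase Echs1 stood at 0.34 ± 0.076, and the very long-chain dehydrogenase Acadvl at 0.33 ± 0.080. Hadhb, a subunit of the trifunctional protein, stood at 0.28 ± 0.079, and the long-chain and medium-chain dehydrogenases Acadl and Acadm at 0.19 ± 0.076 and 0.042 ± 0.075 (SE). Hadha, Acad10 and Etfb of this list were not measured.

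Peroxisomal oxidation, which shortens fatty acids that Crot then prepares for export, held 16 measured genes, of which 2 rose and 1 fell (median 0.10), where 0.860% of all genes rose and 0.366% fell. At an unadjusted p below 0.05, 7 were higher and 2 lower, where 20.7% of all genes differed in either direction. Phyh, the phytanoyl-CoA hydroxylase of alpha-oxidation, read 8.04 and 8.07 in vector arrays and 8.76 and 8.88 in Blnc1 arrays, and rose 1.70-fold (limma adjusted p = 0.0341). Amacr, the racemase of branched-chain acyl-CoA, read 9.19 and 9.14 against 9.69 and 9.75, and rose 1.47-fold (limma adjusted p = 0.0479). The peroxisomal importer Abcd2 fell, from 4.34 and 4.38 to 3.70 and 3.42 (log2 fold change -0.80 ± 0.11 SE, limma adjusted p = 0.0460), on a dim probe set. For the remaining 2 Abcd2 probe sets the values were -0.23 and -0.075, and neither passed. With repeated quantile normalization or a robust prior neither Abcd2 nor Amacr passed (limma adjusted p = 0.0510 to 0.0571). Abcd2 also did not pass with the mean of its probe sets (-0.37, limma adjusted p = 0.0605).

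Of 10 acyl-CoA thioesterases, which release free fatty acids from coenzyme A, none passed (limma, median 0.13). Where 20.7% of all genes differed in either direction at an unadjusted p below 0.05, 3 of the 10 were higher. These were Acot10, Acot9 and Acot13 at 0.35 ± 0.077, 0.34 ± 0.077 and 0.31 ± 0.10 (SE). Acot10 and Acot9 are close copies, so their probe sets may share signal.

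Of 20 regulators of shuttle genes 1 rose and none fell (median 0.10), where 0.860% of all genes rose. At an unadjusted p below 0.05, 7 were higher and 2 lower, where 20.7% of all genes differed in either direction. The gene that rose was Ppara, a fatty acid-activated nuclear receptor and inducer of oxidation enzymes, which read 7.48 and 7.29 in vector arrays and 8.14 and 8.09 in Blnc1 arrays (0.73 ± 0.095 SE, limma adjusted p = 0.0434). With repeated quantile normalization its limma adjusted p was 0.0524. Both further probe sets of Ppara also passed, at 0.87 and 1.01. Ppard and Pparg stood at 0.14 ± 0.097 and 0.10 ± 0.075. Ppargc1a, another of the listed regulators, was not measured. The orphan receptor Esrrg stood at 0.40 ± 0.077, and Nrip1, a corepressor of oxidative genes, at -0.32 ± 0.077 (SE). Rxra, a partner receptor of the PPARs named after its values were seen, stood at -0.40 ± 0.11 (SE, limma adjusted p = 0.144). A further, dimmer Rxra probe set stood at -0.063 (limma adjusted p = 0.724).

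Genes known as targets of PPAR-alpha did not move as one. Of 14 measured 3 rose and none fell, where 0.860% of all genes rose. At an unadjusted p below 0.05, 5 were higher and 1 lower, where 20.7% of all genes differed in either direction. Of the 14, 8 were positive, against 51.6% of all genes, and the median was 0.094. Pdk4, which restrains glucose oxidation, read 8.67 and 8.62 against 9.50 and 9.62 and rose 1.89-fold (limma adjusted p = 0.0237). Angptl4, a secreted inhibitor of lipoprotein lipase, read 8.43 and 8.24 against 9.14 and 9.15 and rose 1.75-fold (limma adjusted p = 0.0348). Plin5, a lipid droplet protein that contacts mitochondria, rose 1.70-fold (limma adjusted p = 0.0388). Ucp3 and Fgf21, named after their values were seen, stood at -0.21 ± 0.078 and -0.28 ± 0.11 (SE). Both probe sets were dim, and neither passed (limma adjusted p = 0.219 and 0.265).

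**Figure D4:**
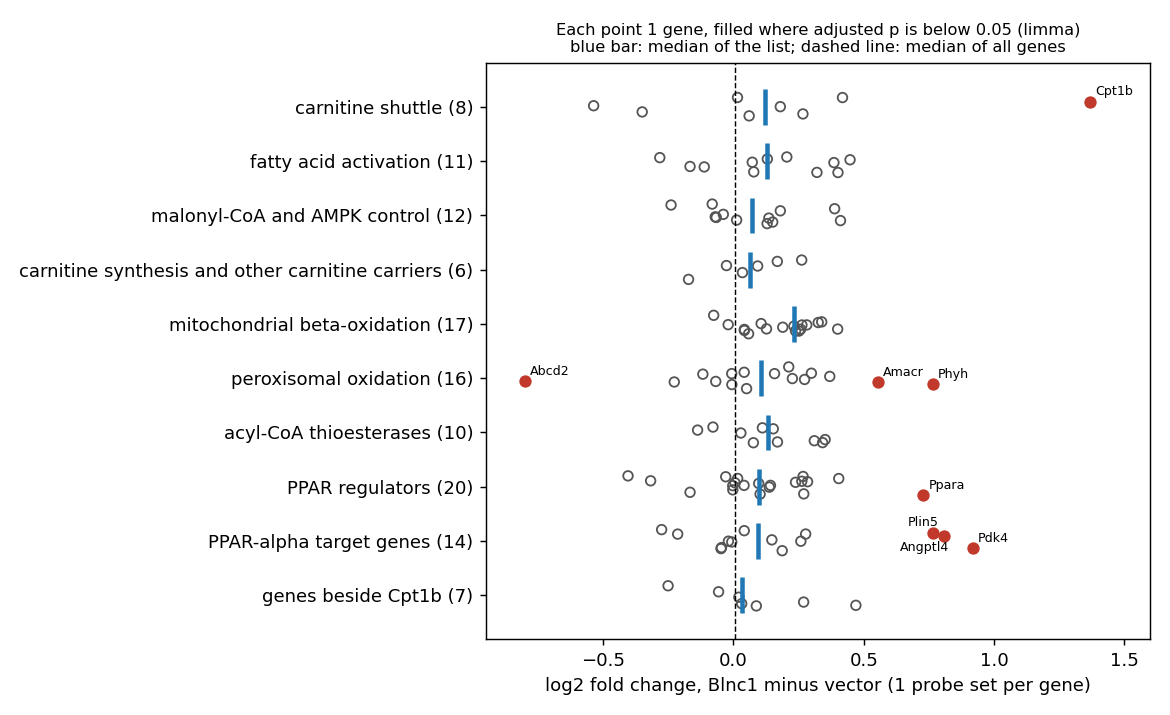
Log2 fold change (Blnc1 minus vector) of every measured gene of the carnitine shuttle and of the 9 surrounding lists, 1 probe set per gene, with the number of genes in brackets; filled points passed an adjusted p of 0.05 (limma), blue bars are list medians and the dashed line is the median of all genes. Cpt1b at 1.37 lies above every gene of the surrounding lists, and the beta-oxidation list has the highest median, 0.23.

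Markers of tissues in which the isoforms are typical were read on the same arrays. Only 4 of 18 listed muscle and 4 of 10 liver markers were measured. The same held for 2 of 8 neuronal, 3 of 7 macrophage and leukocyte and 1 of 6 endothelial markers. Myod1, Ttr, Ptprc and Pecam1 were among those not measured, so the levels cannot show that a cell type was absent. All 4 measured muscle genes (Myog, Ckm, Tnnc2 and Des) lay below the array median, with mean levels between 4.16 and 5.02. Their summed linear signal was 86.7 to 92.7 in vector and 92.3 to 96.3 in Blnc1 arrays, and none passed, with 1 (Des) at an unadjusted p below 0.05 (limma). The 4 liver genes lay between 3.73 and 5.21, with a summed signal of 92.8 to 98.3 in vector and 106 to 107 in Blnc1 arrays, and none passed, with 1 (Apoa2) at an unadjusted p below 0.05. The 2 neuronal genes lay at 3.90 and 4.46, the 3 macrophage and leukocyte genes between 4.22 and 4.65 and the endothelial Kdr at 4.23, and none of these 6 had an unadjusted p below 0.05 (limma). Of all genes, 20.7% had an unadjusted p below 0.05 in either direction.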

How the data were processed

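Gene expression was measured on 4 single-colour Affymetrix arrays. The deposited table holds 1 log2 value per probe set and array, which the authors made with RMA (background correction, quantile normalization, probe summary); the submitters' processing notes also name affy and limma, without versions. The log2 scale was read from the values, 2.70 to 13.3. Raw intensities were not used here. Precision is limited by there being 4 arrays.

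Leaving out 35 control probe sets, 23599 were tested with limma 3.58.1 in R 4.3.3 (lmFit, eBayes, no covariate; prior SD 0.092). GEO's platform annotation gave 1 symbol to 16692 probe sets, several to 372 and none to 6535. In lists a gene is read by its brightest probe set. All shuttle probe sets are named. Of each list, those past the threshold, the 3 smallest p-values and some preset genes are named. Members and lists were chosen with earlier results of these data known. The test was checked on simulated data. Alternatives were other normalizations, priors, filters, thresholds, probe set means, the replicate block and each array left out.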

Additional observations from a re-analysis of the deposited data

How the results depend on the processing

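The alternatives for single genes were planned; those for the surrounding lists were chosen after seeing the data. Past the threshold were 219 probe sets in all, 1 shuttle probe set and 7 listed genes. An intensity-dependent prior gave 2174, 5 and 33, and a threshold of 0.1 gave 958, 4 and 13. Averaging the probe sets of each gene gave 467, 3 and 12 genes. Without the lowest 0.25 of probe sets by mean level there were 334 probe sets, 2 of them of the shuttle. Cpt1a and Cpt1c, called dim above for lying below the array median, stayed in that fit. Median centring and leaving out x_at probe sets also gave 2 shuttle probe sets, Cpt1b and Cpt1a. Repeated quantile normalization gave 4 listed genes. With 1 array left out there were 3 to 38 probe sets, 0 to 1 of the shuttle and 0 listed genes (limma; 28 to 35 listed genes at an unadjusted p below 0.05). The causes were not tested.

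Same-numbered replicates did not clearly deviate together (correlation of deviations over probe sets 0.089), so the number is not taken as a pairing. The replicate block gave 30 probe sets and 0 listed genes (limma; 47 at an unadjusted p below 0.05), and Cpt1b stayed past the threshold (limma adjusted p = 0.0495).

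Cpt1b kept its direction in all 12 alternatives, between 1.30 and 1.44. The shift of Cpt1b against Cpt1a lay between 1.88 and 1.93; each has a single probe set, so no other could be tried. Reversed signs were found for the brighter Crat probe set (-0.0065 with repeated quantile normalization, -4.5e-04 with median centring), Crot (-0.026 to 0.15 with 1 array left out), Acaca (0.10) and Slc25a29 (-0.021), both after averaging probe sets. The dim Crat and Crot probe sets were not in the fit without dim probe sets.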
